A study of Homo sapiens with 8 samples.

Results

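FGFBP1, TPPP3, PLPP1, CPA4, TM4SF1, EMP1 and SLC16A6 are 7 protein-coding genes. Their mean levels were higher in self-seeded and in circulating tumour cells than in primary tumour cells. In the shallower circulating library, FGFBP1 and EMP1 were not above all primary tumour libraries. The 7 genes were picked by symbol because earlier results on these same libraries showed them raised. They make up 7 of the 39533 genes in the count table. All 7 passed the filter on low counts, which left 14255 genes to test. Their differences from primary tumour cells are therefore given as a description, and calls on them are not read as a test.

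The cells were HCT116, a human colorectal cancer line, in a model of tumour self-seeding, in which circulating tumour cells return to a tumour. Tumour self-seeded cells (TSC, 3 libraries) and primary tumour cells (PC, 3 libraries) came from the primary tumour, and circulating tumour cells (CTC, 2 libraries) from blood. All groups share this line, and no treatment, genotype difference, host animal or sampling time is given in the sources used here. How TSC were told from PC is not given either, and nothing says that replicates came from separate animals, so p-values measure the spread between these libraries, which may be technical. Liver cancer is named in the title of the series and a colorectal line in its labels.

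Most of these genes encode proteins of the cell surface or of the space around the cell. FGFBP1 is a secreted carrier that frees fibroblast growth factors (FGFs) from heparan sulfate in the matrix and hands them to their receptors. CPA4 is a secreted metallocarboxypeptidase that trims amino acids from the C-terminal end of peptides. PLPP1 is a plasma membrane phosphatase that removes phosphate from lysophosphatidic acid and related lipids. TM4SF1 and EMP1 are small proteins that cross the membrane several times, from different families; EMP1 has been used to mark invasive cells of colorectal tumours. SLC16A6 belongs to the monocarboxylate transporters, and TPPP3, the only intracellular protein of the set, binds tubulin.

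Total counts were 957607 in CTC replicate 1 and 4578869 to 19264595 in the other libraries. In CTC replicate 1 a count of 0 still allowed up to 2.99 CPM (the count scaled to library size, with TMM factors), against 0.156 to 0.668 CPM elsewhere, taking 3 counts as the floor. Intervals and floors here cover counting error only. The epithelial marker EPCAM was at 568 and 546 CPM in CTC replicates 1 and 2, and the 10 markers of colonic epithelium and the line summed to 5184 to 7720 CPM in CTC, 6033 to 8115 CPM in PC and 8092 to 9327 in TSC. Of these markers CLDN7 was listed at 0 in every library and CEACAM5 had 4 counts in all. A gene listed at 0 here is not thereby known to be silent.

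The 7 genes lie on 7 chromosomes, so they share no locus. In GENCODE release 29 on GRCh38 (the same build as hg38, 1-based), FGFBP1 spans 15935569 to 15938740 of chromosome 4 (minus strand), TPPP3 67389809 to 67393535 of chromosome 16 (minus) and PLPP1 55424854 to 55535050 of chromosome 5 (minus). CPA4 spans 130293134 to 130324180 of chromosome 7 (plus), TM4SF1 149369022 to 149377865 of chromosome 3 (minus), EMP1 13196716 to 13219939 of chromosome 12 (plus) and SLC16A6 68267026 to 68291267 of chromosome 17 (minus).

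RefSeq promoter sequences on GRCh38.p14 were matched for 4 of the 7 genes, and the 250 bases before the RefSeq start of each are shown. That start is the GENCODE start for FGFBP1 and lies inside the GENCODE span given above for the other 3, so that 10 bases of the EMP1 window, 27 of the CPA4 window and 216 of the TM4SF1 window fall within the annotated gene. Capitals mark matches to the AP-1 motif TGANTCA or the TEAD motif GGAATG, searched on both strands, and each sequence reads 5′ to 3′ along the gene's strand. CPA4 is chr7:130292911-130293160 (plus), EMP1 chr12:13196476-13196725 (plus), TM4SF1 chr3:149377650-149377899 (minus) and FGFBP1 chr4:15938741-15938990 (minus).
CPA4: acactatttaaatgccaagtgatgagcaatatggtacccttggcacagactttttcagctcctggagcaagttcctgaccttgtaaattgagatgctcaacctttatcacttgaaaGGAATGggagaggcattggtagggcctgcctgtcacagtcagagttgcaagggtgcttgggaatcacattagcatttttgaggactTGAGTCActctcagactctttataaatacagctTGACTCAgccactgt
EMP1: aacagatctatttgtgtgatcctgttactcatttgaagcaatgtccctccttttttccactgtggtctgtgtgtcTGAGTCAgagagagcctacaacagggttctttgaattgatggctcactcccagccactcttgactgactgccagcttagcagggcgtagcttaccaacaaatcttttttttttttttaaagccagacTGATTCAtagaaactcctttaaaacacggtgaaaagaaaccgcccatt
TM4SF1: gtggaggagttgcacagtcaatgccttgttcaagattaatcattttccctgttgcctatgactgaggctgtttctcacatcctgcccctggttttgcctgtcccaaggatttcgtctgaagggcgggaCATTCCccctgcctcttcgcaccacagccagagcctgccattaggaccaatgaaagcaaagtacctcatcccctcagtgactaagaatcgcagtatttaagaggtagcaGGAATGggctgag
FGFBP1: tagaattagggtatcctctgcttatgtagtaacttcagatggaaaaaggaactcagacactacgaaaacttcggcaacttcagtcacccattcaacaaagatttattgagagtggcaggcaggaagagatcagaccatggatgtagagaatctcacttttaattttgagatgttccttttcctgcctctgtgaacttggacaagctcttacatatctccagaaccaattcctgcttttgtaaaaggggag

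CPA4 and EMP1 each hold 2 AP-1 matches, which begin 48 and 15 bases before the RefSeq start in CPA4 and 175 and 48 bases before it in EMP1; the nearer match of CPA4 lies inside its GENCODE span. The motif is found at least once in 6.57% of all 35116 RefSeq promoter windows of this length, and at least 2 times in 0.402%. TM4SF1 holds 2 TEAD matches, both inside its GENCODE span, and CPA4 holds 1, against 11.9% of all windows with at least 1. FGFBP1 holds neither motif. Other motifs were searched too. CCAAT was in 3 of the 4 windows and the SP1 GC box GGGCGG in 2. TATAAA was in 1 and the E-box CACGTG in 0. Over all windows the shares were 32.0%, 42.6%, 10.7% and 6.34% in this order. The GC content of the 4 windows was 40.8% to 50.8%, below the median of 58% over all windows. A match describes letters only, and no binding was measured.

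FGFBP1 showed the widest split between the circulating libraries. It was at 3.27, 3.22 and 4.98 CPM in PC replicates 1 to 3 and at 92.5, 78.8 and 48.4 CPM in TSC replicates 1 to 3. CTC replicate 1 had 3 counts, or 2.99 CPM with a 95% exact Poisson interval of 0.617 to 8.75 CPM, and CTC replicate 2 had 966 counts, or 92.1 CPM. The second circulating library thus lay within the self-seeded range, while the first lay with primary tumour cells, its interval well below every TSC library. The log2 fold change against PC was 4.22 ± 0.59 (SE, n = 3 and 3) in TSC and 3.83 ± 0.61 (n = 2 and 3) in CTC. The CTC value came from replicate 2: with replicate 1 left out it was 4.56 ± 0.33, and with replicate 2 left out −0.39 ± 0.93. The SE of a value from 1 circulating library, here and for the other genes, assumes that it varies like the libraries of the other groups. After all libraries were thinned to 957607 counts, FGFBP1 had 1 to 5 counts in PC, 47 to 82 in TSC, 3 in CTC replicate 1 and 76 in CTC replicate 2.

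CPA4, the other secreted protein, was at 5.28, 3.96 and 5.71 CPM in PC and at 42.1, 26.4 and 23.2 CPM in TSC. CTC replicate 1 was at 14.0 CPM (14 counts, interval 7.63 to 23.4 CPM) and CTC replicate 2 at 46.7 CPM. Both circulating libraries lay above PC, the first below and the second above all TSC libraries. Its log2 fold change was 2.59 ± 0.36 in TSC and 2.74 ± 0.39 in CTC. Taken singly, CTC replicate 1 gave 1.47 ± 0.53 and replicate 2 gave 3.21 ± 0.33.

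TM4SF1 came nearest to an on and off pattern. It had 1 count in PC replicate 1 and 0 in PC replicates 2 and 3, where 3 counts would have been 0.276 and 0.156 CPM. In TSC it was at 7.35, 4.09 and 9.41 CPM (33, 58 and 104 counts). CTC replicate 1 had 2 counts, or 1.99 CPM with an interval of 0.242 to 7.21 CPM, and CTC replicate 2 had 120 counts, or 11.4 CPM. Every TSC and CTC library lay above every PC library, although the interval of CTC replicate 1 reaches down into that of PC replicate 1. With counts pooled by group, TSC over PC was a ratio of 276 (interval 49.0 to 10960), from 195 counts against 1, and CTC over PC was 447 (78.7 to 17790), with 120 of the 122 CTC counts from replicate 2. Over the PC mean CPM, which rests on that 1 count, CTC replicate 1 was at a ratio of 71.4 and replicate 2 at 410. The mean level was 6.95 CPM in TSC and 6.72 CPM in CTC. The fitted log2 values of 7.58 and 7.77 depend on the prior count.

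EMP1 was at 70.0, 123 and 113 CPM in PC. In TSC it was at 425, 395 and 305 CPM. CTC replicate 1 was at 122 CPM (122 counts, interval 101 to 145 CPM), inside the PC range, and CTC replicate 2 was at 369 CPM, inside the TSC range. The log2 fold change was 1.88 ± 0.32 in TSC and 1.30 ± 0.34 in CTC, the smallest of the set in both groups. For the circulating libraries singly it was 0.25 ± 0.32 in replicate 1 and 1.85 ± 0.27 in replicate 2.

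PLPP1 was at 4.10, 6.26 and 5.50 CPM in PC and at 43.7, 41.1 and 37.3 CPM in TSC. CTC replicate 1 was at 13.0 CPM (13 counts, interval 6.90 to 22.2 CPM) and CTC replicate 2 at 56.7 CPM. The circulating libraries again lay above PC and on either side of the TSC range. The log2 fold change was 2.94 ± 0.36 in TSC and 2.88 ± 0.39 in CTC, and was 1.28 ± 0.45 for CTC replicate 1 and 3.41 ± 0.26 for CTC replicate 2 alone.

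SLC16A6 was at 3.43, 3.68 and 3.79 CPM in PC and at 12.9, 17.7 and 15.3 CPM in TSC. CTC replicate 1 was at 6.98 CPM (7 counts, interval 2.81 to 14.4 CPM) and CTC replicate 2 at 12.2 CPM. It was the one gene for which every CTC library lay below every TSC library, but the interval of the first library takes in all 3 PC values and that of TSC replicate 1. The log2 fold change was 2.08 ± 0.31 in TSC and 1.52 ± 0.36 in CTC, and was 0.93 ± 0.57 for CTC replicate 1 and 1.74 ± 0.34 for CTC replicate 2 alone. After thinning, which left 1 or 2 counts in each PC library, it was 3.03 ± 0.65 in TSC and 2.70 ± 0.72 in CTC.

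TPPP3 broke the pattern of the other 6. It was at 0.335, 1.20 and 0.571 CPM in PC (4, 13 and 11 counts) and at 11.1, 8.61 and 7.14 CPM in TSC. CTC replicate 1 reached 9.97 CPM (10 counts, interval 4.78 to 18.3 CPM), within the self-seeded range, and CTC replicate 2 reached 26.1 CPM, above it. The log2 fold change was 3.68 ± 0.50 in TSC and 4.82 ± 0.53 in CTC. It stayed high for either circulating library alone, at 3.83 ± 0.77 for replicate 1 and 5.24 ± 0.49 for replicate 2.

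**Figure D1:**
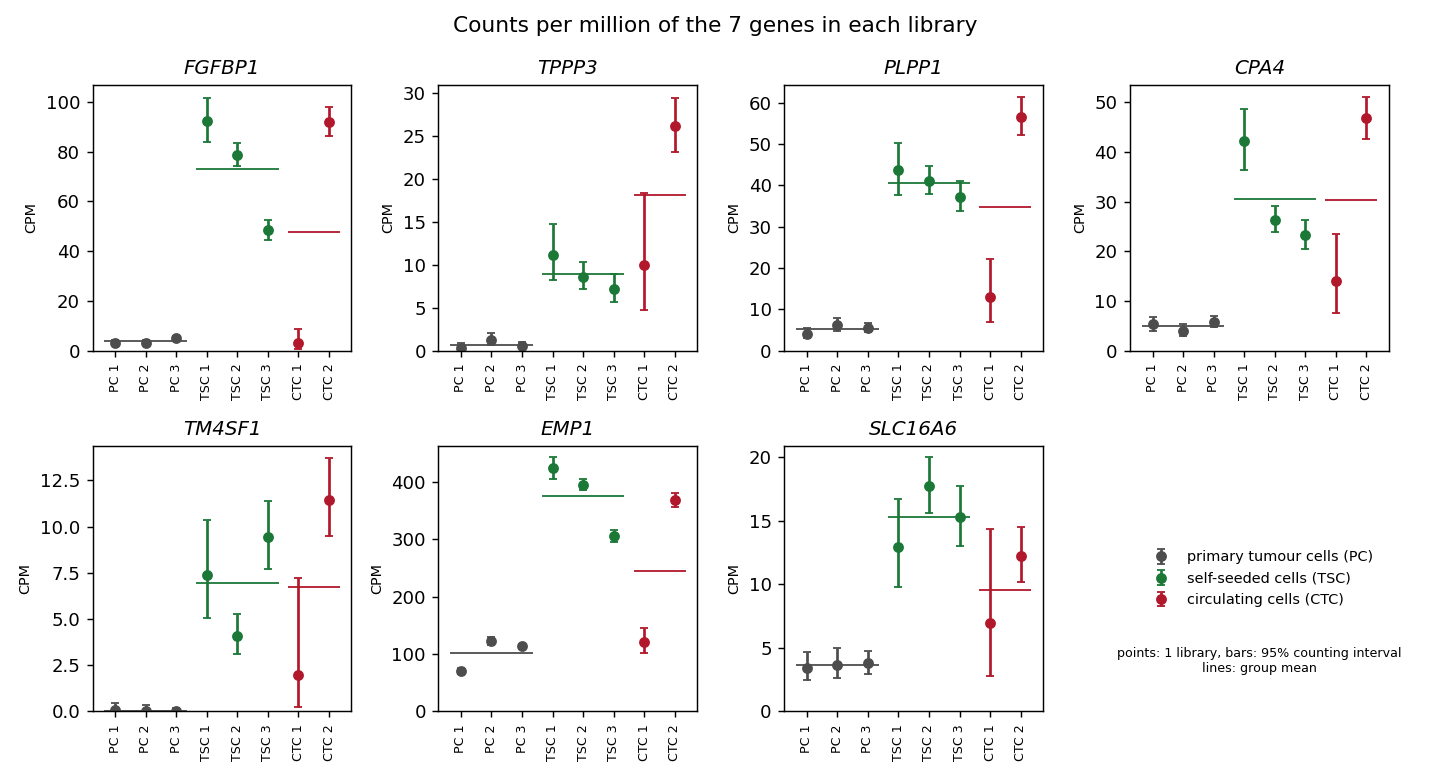
CPM (vertical axis, linear, from 0) of each gene in each of the 8 libraries (horizontal axis); points are libraries, bars their 95% exact Poisson intervals and lines the group means. All TSC libraries lie above all PC libraries for the 7 genes, while CTC replicate 1 lies low for 6 genes and within the TSC range for TPPP3 at 9.97 CPM.

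Read per length, the order of the levels changed. Divided by the merged exon length in kilobases, mean levels in TSC were 53.9 CPM per kb for FGFBP1, 47.9 for EMP1, 20.2 for PLPP1, 7.73 for CPA4, 3.77 for SLC16A6, 3.42 for TPPP3 and 1.89 for TM4SF1. In PC, EMP1 led at 13.0 CPM per kb, ahead of FGFBP1 at 2.81 and PLPP1 at 2.62, and TM4SF1 was last at 0.00761. FGFBP1 and EMP1 in TSC, SLC16A6 and TPPP3 in TSC, and FGFBP1 and PLPP1 in PC are neighbours in this order whose ranges over libraries overlap.

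The choice of the genes fixed the counts against PC, which are given as a description from which nothing is read. With an adjusted p under 0.05 in edgeR's fit as the call, 7 of 7 were higher in TSC, where 0.224% of tested genes were, and 7 of 7 in CTC, where 1.4% were. Every TSC library lay above every PC library for 7 of 7 genes, as for 8.96% of tested genes. Every CTC library lay above every PC library for 5 of 7, as for 19.9% of tested genes; FGFBP1 and EMP1 were the exceptions. The median log2 fold change was 2.94 in TSC and 2.88 in CTC, against 0.01 and −0.04 over all tested genes. Both comparisons use the same PC libraries.

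Leaving out single libraries is likewise a description. These libraries chose the genes, so which genes keep or miss the call is not evidence that they are raised. In CTC against PC without CTC replicate 2, the median log2 fold change was 1.28, with 6 of 7 values positive. Without CTC replicate 1 the median was 3.41. In TSC against PC the fold changes held their size while fewer genes met the call: 3 of 7 without PC replicate 2 (median 3.05), 5 without PC replicate 1 (2.77) or TSC replicate 3 (2.98), and 6 without PC replicate 3 (2.96), against a median of 2.94 with all libraries. Those fits called 10 to 30 of all genes, against 72. EMP1 missed the call in each of these 4 fits. In CTC against PC, EMP1 and SLC16A6 missed it without any single PC library, without TSC replicate 3 or with the replicate number as a block, with medians of 2.68 to 3.00, and EMP1 missed it with the stricter filter. After thinning, TPPP3, CPA4 and TM4SF1 missed it in TSC against PC (median 3.05) and CPA4 and SLC16A6 in CTC against PC (median 2.80).

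The direct comparison of TSC with CTC did not choose the genes, but it is not free of the choice. It uses libraries that chose them, and taking genes raised in both groups leaves out those high in only 1. No gene of the 7 was called (0 of 7, edgeR's quasi-likelihood test), where 0.898% of tested genes were. With so low a share, 0 of 7 says little about these genes. The share of all genes at an unadjusted p under 0.05 is not given here. Of the 7, 1 had an unadjusted p under 0.05, and DESeq2 called 0 and limma-voom 1. TPPP3 was that gene, 2.20-fold lower in TSC (log2 −1.14 ± 0.46, interval −2.12 to −0.15, adjusted p = 0.235 by edgeR), with CTC replicate 2 above all 3 TSC libraries and replicate 1 among them. Limma-voom, which weights libraries by quality, gave an adjusted p of 0.0275 for it, and over all settings the range was 0.0275 to 0.927.

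The intervals were wide for the other 6 genes, so equal levels were not shown. PLPP1 differed by 0.05 (interval −0.75 to 0.85, adjusted p = 0.964 by edgeR), CPA4 by −0.15 (−0.97 to 0.66, adjusted p = 0.884) and TM4SF1 by −0.19 (−1.54 to 1.15, adjusted p = 0.915). FGFBP1 differed by 0.40 (−0.82 to 1.62, adjusted p = 0.771), EMP1 by 0.58 (−0.17 to 1.32, adjusted p = 0.427) and SLC16A6 by 0.56 (−0.20 to 1.32, adjusted p = 0.451), all by edgeR's test. With CTC replicate 2 left out, FGFBP1 was called higher in TSC (4.60, adjusted p = 0.0123), from 1 circulating library with 3 counts whose spread is assumed to be that of the other groups, and stood at −0.34 (adjusted p = 0.601) without CTC replicate 1. Libraries of TSC and CTC did not overlap for 1 of 7 genes, SLC16A6, against 28.4% of tested genes.

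The 2 circulating libraries differed in the same direction for all 7 genes. CTC replicate 2 exceeded replicate 1 by a ratio of 30.8 for FGFBP1 (95% exact conditional interval 10.5 to 150), 5.74 for TM4SF1 (1.55 to 47.9), 4.37 for PLPP1 (2.54 to 8.25) and 3.35 for CPA4 (1.98 to 6.17). The ratio was 3.03 for EMP1 (2.53 to 3.66), 2.62 for TPPP3 (1.40 to 5.52) and 1.75 for SLC16A6 (0.824 to 4.44), whose interval includes 1. The median log2 difference was 1.73 over the 7 genes and 0.03 over all tested genes, of which 51.7% were higher in replicate 2. For FGFBP1, 0.239% of tested genes had a larger difference in that direction, and for SLC16A6 15.5%. With 1 library on each side, these intervals compare the libraries and not a condition. The genes were chosen as raised in these same circulating libraries, which may favour genes high in the deeper replicate 2. The shares over all tested genes are therefore given as a description.

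Set against the TSC mean, CTC replicate 1 reached 4.09% for FGFBP1, 28.7% for TM4SF1, 31.9% for PLPP1, 32.4% for EMP1, 45.6% for SLC16A6, 45.7% for CPA4 and 111% for TPPP3. Replicate 2 ranged from 79.7% for SLC16A6 to 291% for TPPP3.

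**Figure D2:**
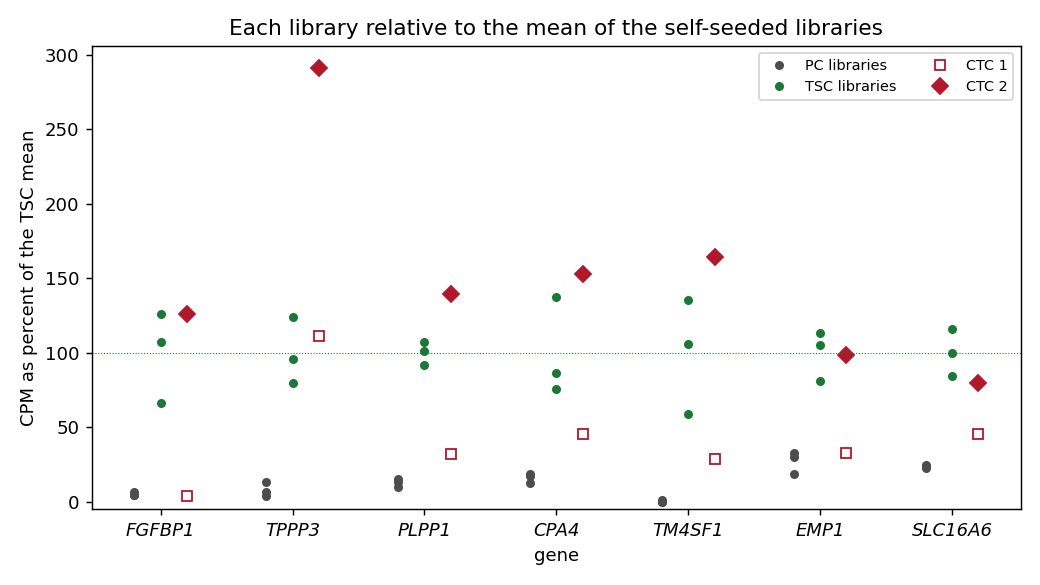
CPM of each library as a percentage of the TSC mean of the gene (vertical axis, dotted line at 100) for the 7 genes (horizontal axis); grey and green points are PC and TSC libraries, open squares CTC replicate 1 and filled diamonds CTC replicate 2. CTC replicate 1 spans 4.09% for FGFBP1 to 111% for TPPP3, and CTC replicate 2 lies at 79.7% or more.

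Markers of blood cells moved with the circulating group. The 15 leukocyte markers reached summed levels of 470 and 158 CPM in CTC replicates 1 and 2, against 9.50 to 13.1 CPM in PC and 6.14 to 17.4 in TSC, and 7 of 9 tested markers rose in CTC against PC (edgeR). CD3E, S100A8 and S100A9 were listed at 0 in all libraries. The 10 erythroid markers summed to 247 and 331 CPM in CTC, with 3 of 4 tested markers higher than in PC, and to 50.4 to 93.5 CPM elsewhere, nearly all of it HBD. GATA1, KLF1 and HBA2 were at 0. In TSC, 0 leukocyte or erythroid markers were called against PC. Between the circulating libraries the leukocyte sum was higher in replicate 1 and the erythroid sum in replicate 2. Single markers could differ from their sum, as ITGAM was at 33.9 and 41.2 CPM in CTC replicates 1 and 2. Whether blood cell RNA contributes to the CTC values of these genes was not tested.

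Endothelial and fibroblast markers are given because TM4SF1 and EMP1 are also known from endothelial and stromal cells. The 10 endothelial markers summed to 47.0 to 58.7 CPM in PC, 50.2 to 56.2 in TSC and 43.9 to 45.4 in CTC, most of it EGFL7. CDH5 had 1 count and PECAM1 3 counts over all libraries. The fibroblast sum was 11.6 to 117 CPM in TSC, 37.1 to 74.6 in PC and 10.2 to 22.9 in CTC, with DCN, LUM and POSTN listed at 0. Platelet markers summed to 0 to 3.99 CPM, with PF4, PPBP and GP9 at 0. No tested marker of these 3 types or of squamous epithelium (7.98 to 52.7 CPM) was called in any comparison, and the hepatocyte markers (0 to 2.35 CPM) were too low to test. In these bulk libraries fewer cells with a transcript and less of it per cell cannot be told apart.

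Related genes were compared to see whether the families and pathways of the 7 genes moved with them. In simulated data at most 38% of 2-fold changes were called, so a gene not called may still have moved. Of 153 related genes in 6 lists, 101 were tested. In TSC against PC, edgeR called 0 of 101, where 0.505% of all tested genes were called. Of the 101, 15 had an unadjusted p under 0.05, and DESeq2 called 1 and limma-voom 9. Over all genes DESeq2 called 191 and limma-voom 553. In CTC against PC, 1 was higher and 4 were lower, where 3.92% of all tested genes were called. These calls are near that share and are not read as a result about the related genes as a set. In TSC against CTC, 0 were called, with 20 at an unadjusted p under 0.05, 2 by DESeq2 and 4 by limma-voom. Over all genes edgeR called 0.898% there, DESeq2 390 genes and limma-voom 440. The share of all genes at an unadjusted p under 0.05 is not given here. The median log2 fold changes of the 101 were 0.10, −0.13 and 0.25 in these comparisons.

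On the FGF axis, 3 of 21 tested genes were called lower in circulating cells. Of all tested genes, 3.92% were called there in either direction. The 3 encode receptors and a matrix partner of FGFs. FGFR3, an FGF receptor gene, was at 37.7, 44.8 and 41.0 CPM in PC and at 8.98 and 20.4 CPM in CTC (log2 −1.30 ± 0.31, adjusted p = 0.0345 by edgeR). FGFRL1, a receptor that lacks the kinase domain, was at 113 to 121 CPM in PC and at 40.9 and 56.0 CPM in CTC (−1.22 ± 0.27, adjusted p = 0.0256). HSPG2, which encodes the heparan sulfate proteoglycan perlecan, was at 107 to 164 CPM in PC and 41.9 and 21.6 CPM in CTC (−2.21 ± 0.48, adjusted p = 0.0233). The other 18 of the 21 tested genes of the list were not called, and the median was −0.61. In TSC the list had 0 of 21 called and a median of −0.13. FGFR3 was at 18.5, 30.8 and 25.2 CPM in TSC, below every PC library (log2 −0.71 ± 0.25, adjusted p = 0.337 by edgeR). FGFRL1 was at 69.5, 141 and 105 CPM in TSC (−0.14 ± 0.22) and HSPG2 at 39.2, 162 and 108 CPM (−0.36 ± 0.36). None of these 3 genes was called in TSC against CTC (adjusted p = 0.363, 0.0834 and 0.0878 by edgeR). The paralogue FGFBP2, the nearest coding gene to FGFBP1 at 21502 bases, had 23 counts in all and was not tested, and FGFBP3 was not called (log2 −1.13 ± 0.91 in TSC, adjusted p = 0.721 by edgeR).

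Tubulin partners gave 0 of 17 calls in each comparison. TPPP, the founding paralogue of TPPP3, was at 16.2 ± 2.34 CPM in PC and 23.4 ± 18.2 CPM in TSC (log2 0.57 ± 0.43, adjusted p = 0.698 by edgeR), and TPPP2 was listed at 0. For CPM, here and below, ± is the SD over libraries, and for log2 values it is the SE. TUBA1B, the most abundant of the list, had a log2 value of 0.24 ± 0.18 in TSC (adjusted p = 0.696). The lipid phosphate list gave 0 of 29 calls in each comparison. PLPP2, a paralogue of PLPP1, was at 61.4 ± 9.84 CPM in PC and 70.8 ± 6.73 CPM in TSC (0.21 ± 0.20, adjusted p = 0.770), and PLPP3 at −0.25 ± 0.55 (adjusted p = 0.914). The sphingosine phosphate lyase gene SGPL1 was at −0.11 ± 0.16 (adjusted p = 0.866).

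Among metallocarboxypeptidases, 7 of 21 genes were tested. In CTC against PC 1 of the 7 was called, where 3.92% of all tested genes were. CPE, a prohormone-processing carboxypeptidase gene, fell in CTC (log2 −1.01 ± 0.26, adjusted p = 0.0472 by edgeR), from 63.2, 69.5 and 68.5 CPM in PC to 47.9 and 25.0 CPM. It was not called in TSC against PC (−0.46 ± 0.21, adjusted p = 0.468) or in TSC against CTC (adjusted p = 0.317 by edgeR). CPA5, which lies 20635 bases from CPA4, had 7 counts in all, and CPA1 and the CPA4 inhibitor gene LXN were listed at 0.

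Tetraspan membrane proteins gave 1 call of 14 in CTC against PC, where 3.92% of all tested genes were called. TSPAN4, a tetraspanin gene, rose from 6.45, 5.80 and 6.80 CPM in PC to 16.0 and 18.7 CPM in CTC (log2 1.47 ± 0.31, adjusted p = 0.0215 by edgeR). It was at 16.0, 12.7 and 11.4 CPM in TSC and was not called there (1.06 ± 0.27, adjusted p = 0.135). The paralogues of EMP1 moved less and were not called in TSC: EMP3 was at 0.49 ± 0.20 (adjusted p = 0.412), EMP2 at 0.24 ± 0.19 (adjusted p = 0.704) and PMP22 at 0.22 ± 0.21 (adjusted p = 0.766). TM4SF18 and TM4SF4, beside TM4SF1 on chromosome 3, had 9 and 2 counts in all.

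Monocarboxylate carriers and ketone body enzymes gave 0 of 13 calls in each comparison. SLC16A3, a lactate exporter gene, was at 176 ± 27.4 CPM in PC and 190 ± 38.7 CPM in TSC (log2 0.11 ± 0.19, adjusted p = 0.890 by edgeR). BSG, which encodes a chaperone of these carriers, was at 0.01 ± 0.16 (adjusted p = 0.991). SLC16A1 was listed at 0.

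**Figure D3:**
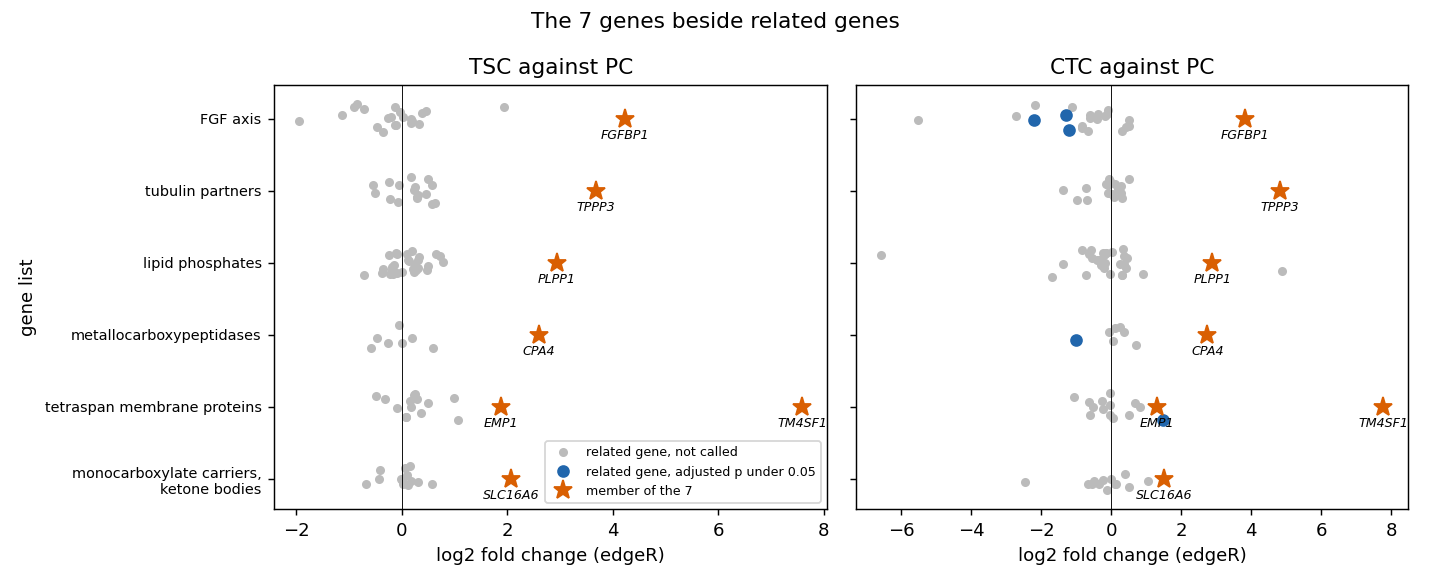
Log2 fold change (horizontal axis) of the tested related genes in 6 lists (vertical axis) in TSC and CTC against PC; orange stars are the 7 genes, blue points related genes with an adjusted p under 0.05 and grey points the others. In TSC none of the 101 related genes is blue; in CTC 4 lie below 0 and TSPAN4 lies above it.

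None of these 5 calls held under every setting. HSPG2 was called without PC replicate 2 but not without PC replicates 1 or 3, TSC replicate 3 or CTC replicate 2 (adjusted p = 0.0594, 0.0768, 0.0502 and 0.303 by edgeR). Without CTC replicate 2, and without PC replicate 1 or 3, 0 of the 5 were called. The fold changes were kept without PC replicate 1, at −1.37 for FGFR3, −1.23 for FGFRL1, −2.22 for HSPG2, −1.02 for CPE and 1.48 for TSPAN4. Without CTC replicate 2 they were −2.20, −1.51, −1.68, −0.49 and 1.32 in the same order. CPE, at −1.43 without CTC replicate 1, was also not called with DESeq2 size factors (adjusted p = 0.0527), with library totals (0.0561) or with the stricter filter (0.0550). With the replicate number as a block FGFR3, FGFRL1 and HSPG2 were called and CPE and TSPAN4 were not (adjusted p = 0.0824 and 0.0688).

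Genes that overlap or flank the 7 did not show calls. SLC16A6 lies within the span of ARSG on the opposite strand, and ARSG was at 12.6 ± 0.836 CPM in PC and 20.9 ± 5.66 CPM in TSC (log2 0.73, adjusted p = 0.373 by edgeR). PLPP1 overlaps MTREX on the opposite strand (0.14, adjusted p = 0.835) and holds the pseudogene RNF138P1 on its own (1.26, adjusted p = 0.603). The strand setting of the counting is not given, so reads from shared stretches cannot be assigned with certainty. TM4SF1-AS1, which overlaps TM4SF1, had 1 count in all. Of the nearest coding gene on each side of the 7, 7 of 14 had enough counts to be tested, and 0 were called in any comparison. ZDHHC1, 616 bases from TPPP3, was at 0.05 in TSC (adjusted p = 0.984).

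Across the 8 libraries the 7 genes followed one another, with Pearson r of log2 CPM from 0.742 (FGFBP1 and TPPP3) to 0.968 (PLPP1 and CPA4, and CPA4 and TM4SF1). Spearman rho ran lower, from 0.548 (FGFBP1 and TPPP3) to 0.929 (TPPP3 and PLPP1, and PLPP1 and CPA4). These values describe libraries that share groups and depth, and the genes were chosen for the shared group difference. Among 9262 other coding genes of at least 3 log2 CPM on average, the 10 most like the mean profile of the 7 were RCAN1 (r = 0.984), CAB39, EFHD2, GDA, SYBU, ATP8B1, YWHAH, RHPN2, SLC35B2 and CAV1 (r = 0.958). RCAN1, which encodes a calcineurin regulator, was at 14.6 to 19.9 CPM in PC, 91.8 to 134 CPM in TSC, 32.9 CPM in CTC replicate 1 and 114 CPM in replicate 2. GDA, the guanine deaminase gene, was at 14.5 to 23.8 CPM in PC, 63.0 to 114 CPM in TSC, and 43.9 and 128 CPM in CTC replicates 1 and 2. The list is loose: 2 of the 10 were also among the 10 highest by Spearman rho, and 4 were without CTC replicate 1.

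**Figure D4:**
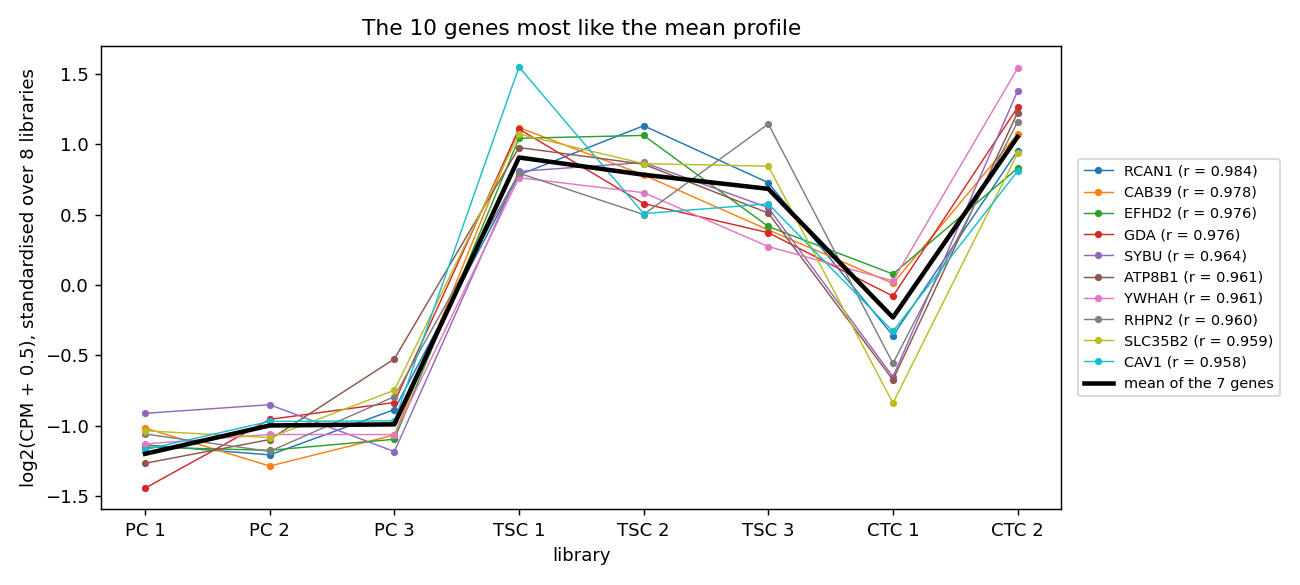
Log2(CPM + 0.5), standardised over the 8 libraries (vertical axis), by library (horizontal axis) for the 10 genes most like the mean of the 7 (thin lines) and for that mean (black). All lines are low in PC and high in TSC and CTC replicate 2, and CTC replicate 1 lies below every TSC library in each; for ATP8B1 and SLC35B2 it lies within the PC range.

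Singly, the genes had different nearest profiles. FGFBP1 was most like SLC35B2 (r = 0.992), NF2 and LMNA, each low in CTC replicate 1. TPPP3 was most like GEM (r = 0.991), MBD2 and RHOB, each high in both circulating libraries; RHOB, a small GTPase gene, was at 138 to 142 CPM in PC, 239 to 305 CPM in TSC and 241 and 358 CPM in CTC. PLPP1 was most like RCAN1 (r = 0.980), GDA and CPA4, and CPA4 most like CAB39 (r = 0.995), NCEH1 and GDA. TM4SF1 was most like MIEF1 (r = 0.973), CPA4 and AP1M1, and EMP1 most like CDC42SE1 (r = 0.973), ATP8B1 and SLC35B2. SLC16A6 was most like GALNT7 (r = 0.988), RCAN1 and GALNT5.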

How the data were processed

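Total RNA was depleted of ribosomal RNA before sequencing, per the labels' protocols. The authors deposited raw counts per gene symbol, whole numbers; per the submitters' processing notes the tools were STAR 2.5.3a and featureCounts 1.5.3 and the build hg38. The sources used here do not give the annotation, the strand setting, or how multi-mapped and host reads were treated. Libraries were grouped by title. All 8 libraries entered 1 edgeR 4.0.16 fit in R 4.3.3 (filterByExpr, TMM, group factor, glmQLFit, glmQLFTest, Benjamini-Hochberg over 14255 genes). The SE is the log2 fold change divided by the square root of F. Alternatives used DESeq2 1.42.0 and limma 3.58.1 (voom with quality weights), other scalings and filters, thinning, a replicate block and each library left out. No 2 libraries agreed within sampling noise. Lengths are merged GENCODE 29 exons. The fit was tested on simulated data. It called 38% of 2-fold changes in TSC against PC, 22% in CTC against PC and 28% in TSC against CTC. For 4-fold changes it called 78%, 70% and 74% in this order. Of 124, 97 and 109 calls, 8, 5 and 7 were false. A gene that was not called is thus not shown to be unchanged.

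The 7 genes and all lists were chosen with earlier results of these data known. Named are the 7 genes, called related genes, the closest paralogues, the most abundant gene of lists without a call, flanking and overlapping genes, and the genes with the most alike profile by Pearson r. RCAN1, GDA and RHOB were picked for full values, and CD9 for the closing observation, after their values were seen. Some items covered by this rule and the marker lists are not reported here.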

Additional observations from a re-analysis of the deposited data

How the results depend on the processing

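The members' fold changes in TSC against PC kept their sign under all 17 alternatives, and so did those in CTC against PC except FGFBP1, which ran from −0.39 without CTC replicate 2 to 4.56 without CTC replicate 1. Members called in TSC against CTC were 0, but 1 by limma-voom (TPPP3) and 0 to 1 with a library left out (FGFBP1 without CTC replicate 2). Related genes called in TSC against PC were 0, but 1 (CD9) with no filter, by DESeq2, with only the 2 groups and after thinning, 9 by limma-voom, and 0 to 1 with a library left out. In CTC against PC they were 5, but 12 with no filter, 10 by DESeq2, 15 by limma-voom, 11 with only the 2 groups, 3 with the replicate block, 3 after thinning, and 0 to 13 with a library left out (13 without TSC replicate 1, 8 without TSC replicate 2, 1 without TSC replicate 3 or PC replicate 2, 0 without CTC replicate 2, PC replicate 1 or PC replicate 3). In TSC against CTC they were 0, but 7 with no filter, 2 by DESeq2, 4 by limma-voom, and 0 to 6 with a library left out (6 without TSC replicate 1). Calls over all genes changed as well. In CTC against PC they were 559, but 1535 with no filter, 1125 by DESeq2, 1660 by limma-voom and 1409 with only the 2 groups. They were 263 after thinning and 1575 without TSC replicate 1. In TSC against PC they were 72, but 553 by limma-voom. In TSC against CTC they were 128, but 728 with no filter, 390 by DESeq2, 440 by limma-voom and 696 without TSC replicate 1. The cause of these changes was not tested. Deviations of same-numbered libraries from their group means correlated at 0.0328, −0.134 and 0.0943 for TSC and PC. They correlated at 0.0229 and 0.0449 for CTC and PC, and at −0.0536 and −0.0236 for TSC and CTC. With 2 or 3 libraries per group such deviations constrain each other, so these values cannot show whether libraries were paired. No pairing was assumed in the main fit. The replicate block brought all genes called in CTC against PC from 559 to 261, and it gave 0 members and 0 related genes in TSC against CTC and 0 related genes in TSC against PC. CTC replicate 1 had 2 to 122 counts for the 7 genes.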

Other observations

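CD9, a tetraspanin gene of the related lists, was singled out after its values were seen. It was at 213, 212 and 178 CPM in PC, 463, 397 and 338 CPM in TSC, and 231 and 467 CPM in CTC replicates 1 and 2. CTC replicate 1 lay just above the PC range and CTC replicate 2 just above the TSC range. For EMP1 these libraries lay inside the PC range and inside the TSC range, in this order. The log2 fold change was 0.99 ± 0.22 in TSC (adjusted p = 0.0739 by edgeR) and 0.81 ± 0.24 in CTC (adjusted p = 0.0706), not called in either. DESeq2 called it in both (adjusted p = 0.00202 and 0.0208).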
